A study of Mus musculus with 6 samples.

Results

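The mitochondrial ribosomal proteins were taken as the probe sets whose single platform gene symbol begins with Mrpl or Mrps followed by a digit. A probe set is a group of short oligonucleotides on an Affymetrix array that together measure a transcript. The rule found 160 probe sets of 76 genes among 45137 probe sets in all, summed over both array types. Probe sets on both types, 4 of the members and 100 in all, were counted on each. On the MOE430A array they were 127 of 22626 probe sets, for 74 genes, and on the MOE430B array 33 of 22511, for 27 genes. Of the genes, 25 were on both array types, 49 on MOE430A only, and Mrps10 and Mrps27 on MOE430B only. RefSeq lists 78 protein-coding genes with such a symbol, and Mrpl30 and Mrpl53 were not analysed here because their probe sets also carried another symbol. The mitochondrial ribosome proteins that have unrelated symbols, such as Dap3, fall outside the rule and are described separately.

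The RNA came from DR4 mouse embryonic fibroblasts, taken at embryo day 15 and used as feeder cells, the supporting layer under embryonic stem cells. DR4 is a mouse strain bred to carry several drug-resistance genes. They served as the control sample of 3 embryonic stem cell lines (J1, R1, V6.5) that were not analysed here, and the series holds no treatment or second cell type. All were kept in D-MEM with 15% serum and LIF, a cytokine that stem cells need, on gelatin. There were 3 replicates on each of the 2 array types, 6 arrays in all. Replicate 1 was prepared from 12x10e6 cells, at 2.4 ug/ul of RNA. Replicates 2 and 3 were prepared from 3x10e6 cells each, at 3.0 ug/ul. Because no label gives the replicates as separate cultures, every SD and p-value below covers the spread between these 3 samples alone, and that spread may be technical.

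The mitochondrial ribosome translates the few proteins that the mitochondrial genome encodes, which are core subunits of the respiratory chain and the ATP synthase. Its ribosomal RNAs come from that genome, but all of its proteins are encoded in the nucleus, made in the cytosol and imported. The small subunit decodes the messenger RNA, and the large subunit joins the amino acids and passes the new chain towards the inner membrane. Many of the proteins descend from bacterial ribosomal proteins, and others are found in mitochondria only. Proteins of a shared complex are known in many tissues for RNA levels that vary together, which is why the members are described below both singly and by their deviations within a replicate.

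Promoter windows are shown for 6 genes that the results below return to. The first 4 have a probe set that was lowest in replicate 3, and Mrpl9 and Mrpl36 had brightest probe sets that varied little. These genes were chosen after their values were seen, and the windows shown all hold a marked match, which many of the others do not. The letters are the 100 bases before the RefSeq start, 5′ to 3′ on the gene's own strand, in build GRCm38.p6, and capitals mark matches to the motifs named in the next paragraph.
Mrpl43, a large-subunit protein found in mitochondria only, chr19:45006443-45006542, minus strand: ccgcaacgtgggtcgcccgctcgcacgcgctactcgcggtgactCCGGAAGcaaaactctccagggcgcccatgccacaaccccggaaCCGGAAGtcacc
Mrpl52, likewise found in mitochondria only, chr14:54426809-54426908, plus strand: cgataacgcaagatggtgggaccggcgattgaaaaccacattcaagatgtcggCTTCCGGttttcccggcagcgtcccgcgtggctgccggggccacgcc
Mrps18a, a large-subunit protein despite its name, chr17:46110904-46111003, plus strand: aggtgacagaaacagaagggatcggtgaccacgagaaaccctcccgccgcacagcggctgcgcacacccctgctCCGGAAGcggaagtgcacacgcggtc
Mrpl22, which lines the tunnel through which the new chain leaves, chr11:58171564-58171663, plus strand: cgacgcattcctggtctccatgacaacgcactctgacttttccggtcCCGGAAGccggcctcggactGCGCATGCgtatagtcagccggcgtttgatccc
Mrpl9, a counterpart of bacterial L9, chr3:94443236-94443335, plus strand: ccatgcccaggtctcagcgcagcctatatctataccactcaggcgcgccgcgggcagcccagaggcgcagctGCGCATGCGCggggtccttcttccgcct
Mrpl36, a counterpart of bacterial L36, chr13:73330909-73331008, plus strand: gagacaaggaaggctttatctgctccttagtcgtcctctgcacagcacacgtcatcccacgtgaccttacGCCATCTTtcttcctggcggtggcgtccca

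Motifs were searched on both strands in the RefSeq promoters of 300 bases, from 250 before to 50 after each start. Of the 76 genes, 67 were matched by symbol. The ETS family motif CCGGAAG, which GABP, an activator of many genes for mitochondrial proteins, binds, was in 24 of 67 (35.8%). It was in 9.12% of all 27025 promoters and in 17.7% of those of 8003 other genes above the array floor defined below. The motif GCATGCGC of nuclear respiratory factor 1 was in 8 (11.9%), against 2.80% of all promoters and 5.49% of the others above the floor. The motif AAGATGGC of Yin Yang 1 was in 12 (17.9%), against 2.88% and 4.59%. At least 1 of these 3 was in 36 of 67 promoters, and 8 held 2 or more. The windows of Mrpl43, Mrpl52, Mrps18a and Mrpl22 hold the ETS letters, with 2 matches in that of Mrpl43, those of Mrpl22 and Mrpl9 hold the nuclear respiratory factor 1 letters, and that of Mrpl36 holds the Yin Yang 1 letters. The overlapping pair in the Mrpl9 window is 1 stretch read on both strands. The windows shown are no sample of the members, and their ETS letters do not follow the order of the replicates in other genes. In the same 100 bases Mrpl40 and Mrpl44, each with a probe set lowest in replicate 3, hold no ETS match. Mrpl34, whose brightest probe set varied little, holds 1.

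Common promoter letters showed other shares. GGGCGG, the GC box, was in 34 of 67 member promoters (50.7%), against 35.9% of all and 64.03% of the others above the floor. CCAAT was in 26 (38.8%), against 37.9% and 38.0%, and CACGTG, the E box that Myc and Max bind, in 5 (7.46%), against 7.24% and 10.2%. TATAAA was in 4 (5.97%), against 14.2% and 7.21%. A match says only that these letters are in the window.

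A probe set was called above the floor if its signal exceeded that array's median over all probe sets, in each of the 3 replicates. That median was 684.9 to 734.2 on MOE430A and 849.0 to 917.1 on MOE430B, in MAS5 signal, a linear intensity that the authors had scaled to the same trimmed mean on every array. It is a relative floor, so a count above it does not say how many genes are expressed. In bulk RNA, fewer cells with a transcript and less of it per cell cannot be told apart. On MOE430B the brightest bacterial tryptophan control, which the cells do not make, read 1989 to 2348, above that floor, while on MOE430A it read 614.5 to 785.6. All 11 fibroblast marker genes were above the floor. Of the other lists, 1 of 8 pluripotent and 3 of 7 macrophage genes were. So were 2 of 6 genes each for endothelium, skeletal muscle and epithelium. Of all genes with a single symbol, 54.7% were. Some genes of the other lists read well above the floor. Csf1r and Lyz2, of the macrophage list, read 1945, 1694 and 1940, and 2279, 2443 and 1367. Epcam, of the epithelium list, averaged 62.1 on its brightest MOE430A probe set and 32393 on MOE430B. Pou5f1, a defining stem cell factor, read 15.6, 265.4 and 46.0 in replicates 1, 2 and 3, under the floor throughout. The pluripotent gene above the floor was Esrrb, through MOE430B, where the highest probe set of that list averaged 4339. On MOE430A the brightest Esrrb probe set read 776.0, 822.7 and 563.9, and Utf1 read 693.6, 1259 and 498.4.

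Most of the family was above that floor. On MOE430A 86 of 127 member probe sets (67.7%) were, where 42.4% of all probe sets were. On MOE430B 22 of 33 (66.7%) were, where 37.2% of all were. With the brightest tryptophan control of each array as the floor, an alternative added after the data were seen, 85 and 9 were, where 41.5% and 16.2% of all were, so most MOE430B members did not clear that control. Counted by gene, 74 of 76 (97.4%) had a probe set above the floor on either array type, and 54.7% of all 18193 genes with a single symbol did. A gene with several probe sets has more chances to pass, so the genes with 1 MOE430A probe set were also counted alone. There 40 of 41 (97.6%) were above the floor, and 38.9% of all 7437 such genes. Of related families, 44 of 49 cytosolic ribosomal protein genes (89.8%) and 75 of 82 genes of the respiratory chain and ATP synthase (91.5%) had a probe set above the floor. By probe set on MOE430A both shares were above that of the members, at 80 of 100 (80.0%) and 130 of 151 (86.1%). On MOE430B they were 3 of 5 and 5 of 17. With the stricter floor of the 75th percentile, 42 of the 76 genes stayed above it, where 30.4% of all genes did.

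**Figure D1:**
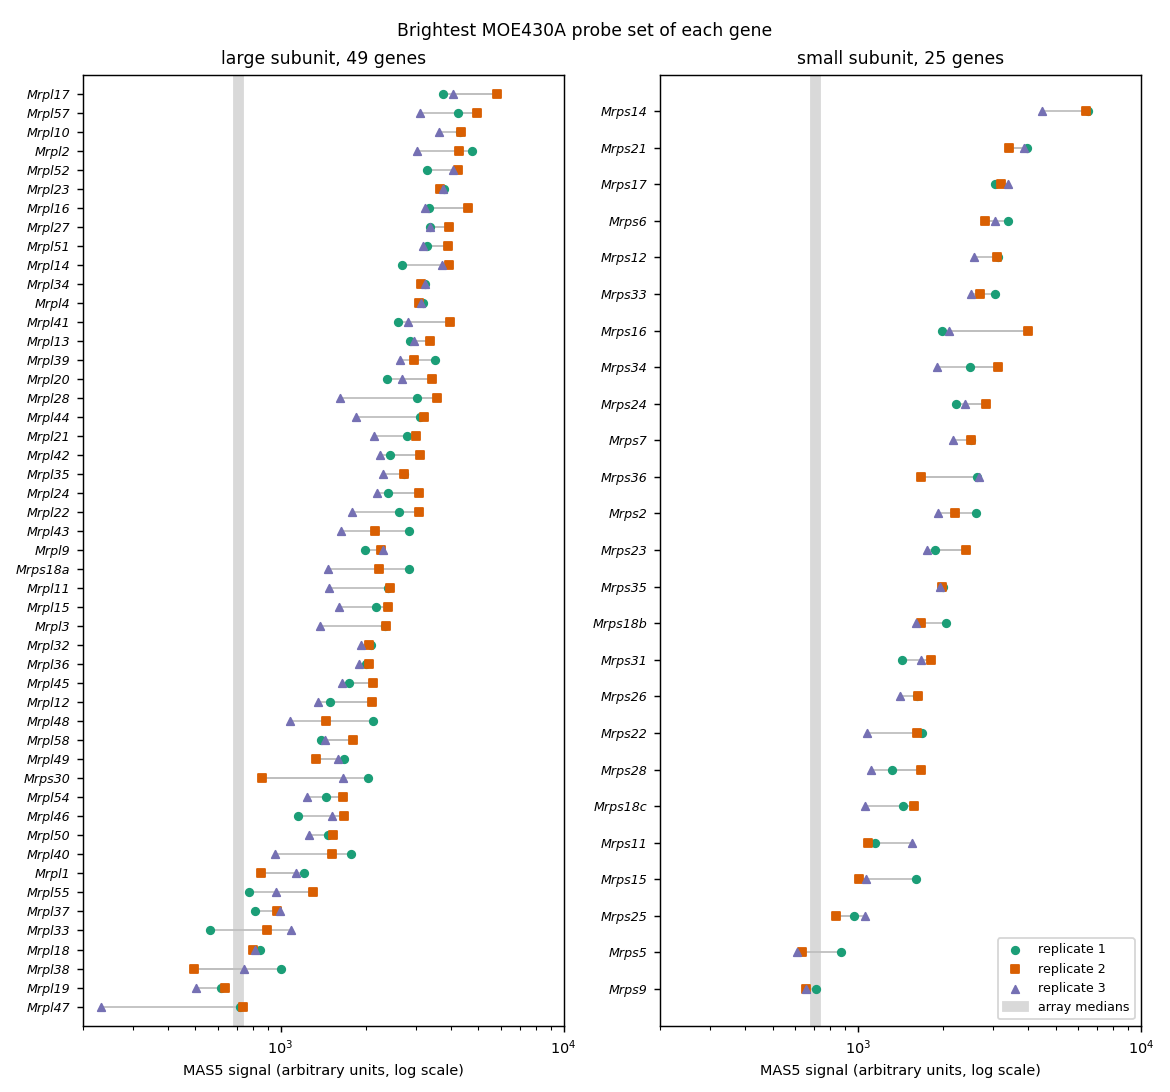
MAS5 signal (log scale, arbitrary units) of the brightest MOE430A probe set of each of 74 genes, with a point for each of 3 replicates and a grey band over the range of the 3 array medians, 684.9 to 734.2. Most genes lie right of the band in every replicate, those that reach it or lie left of it include Mrps9, Mrpl19 and Mrpl47, and the purple triangle of replicate 3 is often the leftmost point of a row; probe sets hybridize differently, so the rows are ordered for reading only.

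In the small subunit, 26 of 27 genes were above the floor. They were 15 of 16 with bacterial counterparts and 11 of 11 found in mitochondria only. Mrps14, a counterpart of bacterial S14, read 6488, 6376 and 4481 in replicates 1, 2 and 3 (mean 5782 ± 1128 SD, n = 3), lowest in replicate 3. Mrps21 read 3946, 3417 and 3861 (mean 3741 ± 284). Mrps17, a counterpart of bacterial S17, read 3055, 3202 and 3392 (mean 3217 ± 169), the narrower spread of these. Mrps12, the counterpart of bacterial S12 at the decoding centre, read 3133, 3102 and 2568. Of those found in mitochondria only, Mrps33 read 3040, 2713 and 2503. Mrps34 read 2481, 3134 and 1897, a wider spread. Mrps36 read 2635, 1676 and 2683, lowest in replicate 2. Mrps36 was named as a ribosomal protein and is now also known as a subunit of the alpha-ketoglutarate dehydrogenase complex.

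In the large subunit, 48 of 49 genes were above the floor, 28 of 29 with bacterial counterparts and 20 of 20 found in mitochondria only. Mrpl17 read 3749, 5820 and 4056 (mean 4542 ± 1117 SD, n = 3), highest in replicate 2. Mrpl2, whose bacterial counterpart sits close to the site of peptide bond formation, read 4756, 4274 and 3035 (mean 4022 ± 888). Mrpl57 read 4247, 4959 and 3106, Mrpl51 read 3291, 3918 and 3183, and the brightest Mrpl52 probe set read 3294, 4235 and 4081. Mrpl57 and Mrpl2 were lowest in replicate 3, and the Mrpl52 probe set in replicate 1. Mrpl45, which lies at the exit of the tunnel and faces the inner membrane, read 1748, 2127 and 1642. Mrpl58, a peptidyl-tRNA hydrolase that became part of the ribosome, read 1389, 1798 and 1431.

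The flexible stalk of the large subunit recruits the translation factors. All 3 genes of the stalk and its base were above the floor. Mrpl10, the anchor of the stalk, read 4300.2, 4328 and 3627 in replicates 1, 2 and 3. Mrpl12, the stalk protein itself, read 1489.8, 2112 and 1352. Mrpl11, at the base, read 2393, 2431 and 1485 on its brightest probe set and 1774, 1309 and 1296 on another. Replicate 3 was lowest in each of these 4 tested probe sets. The 3 proteins named Mrps18 sit at different places, Mrps18a in the large and Mrps18b and Mrps18c in the small subunit. Mrps18a read 2834, 2224 and 1473, Mrps18b read 2048, 1672 and 1603, and Mrps18c read 1449, 1583 and 1059.7. These, too, were lowest in replicate 3 in each case.

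Only 2 genes had no probe set above the floor. Mrps9, whose bacterial counterpart reaches towards the tRNA in the P site, had 4 MOE430A probe sets, and its brightest read 710.5, 656.9 and 658.2. The other 3 were below the floor on every array, at means of 361.8 to 491.7. Mrpl33 read 563.8, 894.5 and 1092, above the floor in replicates 2 and 3 only, and its other probe set read 425.0, 458.5 and 509.3. Another 6 genes were above the floor through MOE430B alone. Mrps10, the counterpart of bacterial S10, read 7265, 5005 and 3556 there, and Mrps27, an RNA-binding protein of the small subunit, 2272, 2284 and 1563. Neither has a MOE430A probe set. Mrpl47 read 716.3, 736.0 and 231.6 on MOE430A and 2405, 1442 and 1569 on MOE430B. Mrpl19, Mrpl38 and Mrps5 had 3, 2 and 2 probe sets on MOE430A, none of them above the floor, and read 3096 ± 481, 2095 ± 675 and 2713 ± 1001 on their brightest MOE430B probe sets (mean ± SD, n = 3). Mrps27, Mrpl38, Mrpl47 and Mrps5 read below the tryptophan control of the same MOE430B array in at least 1 replicate, and Mrps10 and Mrpl19 above it in all 3.

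Different probe sets of a gene often gave different answers. Of 33 genes with 2 or more MOE430A probe sets, 9 had all of them above the floor, 19 some and 5 none. This split was not counted over all genes. The 9 were Mrpl9, Mrpl21, Mrpl28, Mrpl39, Mrpl48, Mrps2, Mrps14, Mrps15 and Mrps24, and the 5 were Mrpl19, Mrpl33, Mrpl38, Mrps5 and Mrps9. The 19 were Mrpl1, Mrpl3, Mrpl11, Mrpl13, Mrpl15, Mrpl17, Mrpl34, Mrpl35, Mrpl41, Mrpl42, Mrpl44, Mrpl49, Mrpl50, Mrpl51, Mrpl52, Mrpl57, Mrps11, Mrps23 and Mrps25. Of the 41 MOE430A member probe sets not above the floor, 27 belonged to a gene with another one above it. Mrpl15, a counterpart of bacterial L15, has 7 probe sets, of which 4 read 1661 to 2060.1 on average and 3 read 141.3 to 298.1. Mrpl41 had probe sets that averaged 3125, 2425 and 34.8. Mrpl3 had probe sets that averaged 2023, 848.0 and 53.8, and Mrpl28 had 3 that averaged 2743, 2343 and 2277, so agreement itself differed from gene to gene.

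**Figure D2:**
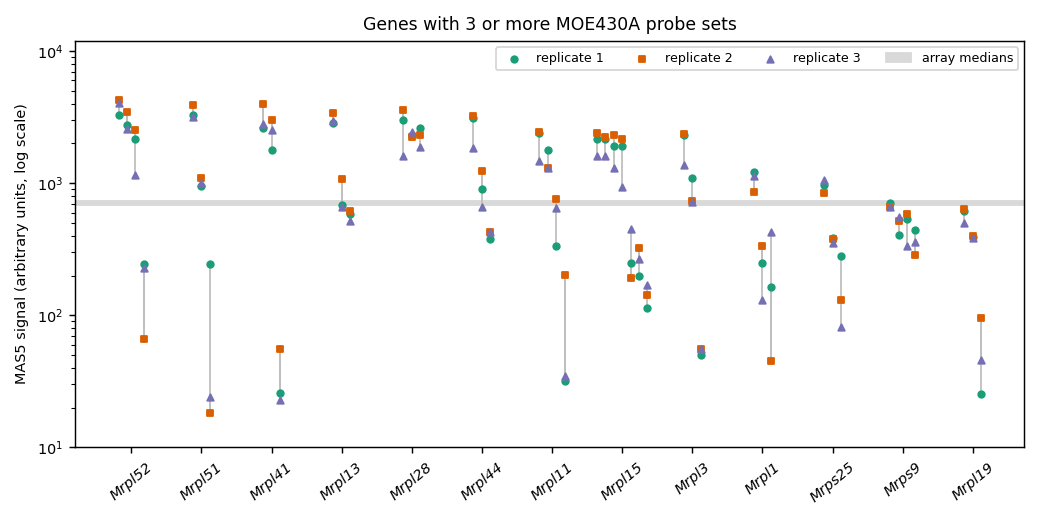
MAS5 signal (log scale, arbitrary units) of every MOE430A probe set of the 13 genes that have 3 or more, with a point for each of 3 replicates joined by a vertical line and a grey band over the 3 array medians. Mrpl15 splits into 4 probe sets above and 3 below the band, those of Mrpl28 lie together, and those of Mrps9 and Mrpl19 lie at or below the band.

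At or under the floor on all 3 arrays of their type were 27 MOE430A and 7 MOE430B member probe sets. On MOE430A they were 3 each for Mrpl15, Mrpl19 and Mrps9, 2 each for Mrpl1 and Mrps25, and 1 each for Mrpl3, Mrpl11, Mrpl13, Mrpl33, Mrpl35, Mrpl38, Mrpl41, Mrpl42, Mrpl44, Mrpl50, Mrpl51, Mrpl52, Mrps11 and Mrps23. On MOE430B they were 1 each for Mrpl13, Mrpl44, Mrpl47, Mrpl54, Mrps10, Mrps14 and Mrps26. Further to these, 14 probe sets on MOE430A and 4 on MOE430B were above the floor on 1 or 2 arrays. Mrpl34 gave the widest such case, with a probe set at 1117, 263.4 and 54.1 beside another at 3231, 3138 and 3228.

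The spread of members between replicates was close to that of all probe sets. It was taken as the SD over 3 replicates of log2(signal + 16), among probe sets whose mean log2 signal exceeded the mean log2 floor. There were 92 such member probe sets of 127 on MOE430A and 25 of 33 on MOE430B. The median SD was 0.25 for the members on MOE430A and 0.26 for all 11066, and on MOE430B 0.31 for the members and 0.33 for all 10594. The small-subunit probe sets on MOE430A had a median SD of 0.22 and those of the large subunit 0.26. With a replicate left out the SD rests on fewer values, so it cannot be set beside the SD over 3. Without replicate 1, 2 or 3 the members' median SD was 0.25, 0.17 and 0.18 on MOE430A. On MOE430B it was 0.30, 0.28 and 0.16. The matching values over all probe sets were not taken.

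Several members varied little. On MOE430A the smallest SDs of log2 signal among those above the floor were those of Mrps35 (0.020), Mrpl23 (0.023), Mrpl34 (0.024), Mrpl4 (0.025) and Mrpl18 (0.041). Mrps35 read 2005, 1980 and 1949. Mrpl23 and Mrpl4 lie close to the exit tunnel, and read 3779, 3665 and 3741 and 3185, 3076 and 3130.5. Mrpl9 read 1987, 2266 and 2306 on its brightest MOE430A probe set, and Mrpl36 read 2006, 2053 and 1899.7. On MOE430B the smallest SDs, by the same limit, were those of Mrpl9 (0.041), Mrpl3 (0.12) and Mrpl58 (0.13). There Mrpl9 read 2787, 2688 and 2845.

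The widest spreads on MOE430A, again among those above the floor on all 3 arrays, were those of Mrpl15 (0.64), Mrps30 (0.64), Mrpl28 (0.60), Mrpl52 (0.60) and Mrps16 (0.55). The Mrpl15 probe set read 1901, 2150.4 and 931.0. The Mrpl28 probe set read 3029, 3581 and 1619, and the Mrpl52 probe set 2145, 2533 and 1146. In these 3 replicate 3 lay below the others. Mrps30, which sits in the large subunit despite its name, was instead lowest in replicate 2, at 2033, 859.8 and 1657. Mrps16 was highest there, at 1982, 3982 and 2103. On MOE430B the widest among those above the floor on all 3 arrays were Mrps15 (0.82), at 1146, 1042 and 2955, Mrpl35 (0.66), at 2740.0, 1177 and 1291, and an Mrps5 probe set (0.56), at 1695, 2746 and 3697.

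Replicate 1 is the sample that the labels set apart, by its cell number and RNA concentration, so it was set against the other replicates, separately on MOE430A and MOE430B. No member was called. On MOE430A limma called 0 of 92 tested member probe sets at an adjusted p under 0.05, where 0.705% of all 11066 were called, and 1 of 92 had an unadjusted p under 0.05, where 8.13% of all did. On MOE430B it called 0 of 25, where 0.0% of all 10594 were called, and 1 of 25 had an unadjusted p under 0.05, where 7.24% did. The member counts called were 0 under every pseudocount, filter, scaling and variance setting tried. The fit of 1 array against 2 has 1 residual degree of freedom and takes the spread of replicate 1 to be that of the others.

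The differences had both signs. Replicate 1 was higher for 57 and lower for 35 of the 92 MOE430A probe sets (62.0% higher, where 48.9% of all were), with a median difference of 0.08 on the log2(signal + 16) scale, and -0.01 over all probe sets. On MOE430B it was higher for 18 and lower for 7 (72.0% higher, where 52.6% of all were), with a median of 0.21, and 0.03 over all. Against replicate 2 alone, that is without replicate 3, the medians were -0.05 and 0.04, so on MOE430A the sign rested on replicate 3. On MOE430A the smallest adjusted p was that of Mrpl33, with a difference of -0.79 (SE 0.37, limma adjusted p = 0.571). By p-value, the next lower differences were those of Mrpl41 (-0.62), Mrpl55 (-0.53), Mrpl14 (-0.51) and Mrps16 (-0.54). The higher differences with the smallest p-values were those of Mrpl48 (0.76, SE 0.37, limma adjusted p = 0.625), Mrps30 (0.76), Mrpl38 (0.71), Mrps18a (0.64) and Mrps15 (0.62). On MOE430B the smallest adjusted p was that of Mrpl35, 1.14 higher (SE 0.37, limma adjusted p = 0.645), and the next higher differences by p-value were those of Mrps10 (0.78) and an Mrps5 probe set (1.23). The lower differences with the smallest p-values there were those of another Mrps5 probe set (-0.90), Mrpl19 (-0.41) and Mrps15 (-0.61). None passed the test, and several moved with a replicate left out. Without replicate 2 the difference of Mrps16 was -0.08, that of Mrps30 0.29, that of Mrpl38 0.42 and that of Mrpl55 -0.32. Without replicate 3 that of Mrps18a was 0.35, that of Mrps16 -1.001 and that of Mrps30 1.23. On MOE430B the higher Mrps5 probe set was at 1.91 without replicate 2 and 0.56 without replicate 3, and Mrps15 at -1.36 and 0.14.

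A different order of the replicates was common among the members, and is given as a description with no test because it was noticed in these values. Replicate 3 was the lowest of the 3 for 54 of 92 tested member probe sets on MOE430A (58.7%), where it was lowest for 33.6% of all tested probe sets. It was the highest for 10 of 92 (10.9%), where it was for 36.3% of all. Among the 3202 tested MOE430A probe sets of any gene with a mean signal between 1407 and 2745, the quartiles of the tested members, it was lowest for 30.3%. On MOE430B it was lowest for 13 of 25 (52.0%), where it was lowest for 34.5% of all, and highest for 7 (28.0%), where it was for 32.0%. The median deviation of replicate 3 from the mean of the replicates was -0.14 on MOE430A and -0.16 on MOE430B, on the log2(signal + 16) scale, against 0.02 and 0.01 over all tested probe sets. Counting the brightest tested probe set of each gene, replicate 3 was lowest for 40 of 70 genes on MOE430A.

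The other replicates were placed differently. Replicate 2 was highest for 47 of 92 on MOE430A (51.1%), where it was for 30.6% of all, and for 9 of 25 on MOE430B (36.0%), where it was for 32.2%. Replicate 1 was highest for 35 of 92 (38.0%) on MOE430A, where it was for 33.2% of all, and for 9 of 25 (36.0%) on MOE430B, where it was for 35.7%. It was lowest for 20 of 92 (21.7%), where it was for 35.6%, and for 4 of 25, where it was for 33.9%.

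**Figure D3:**
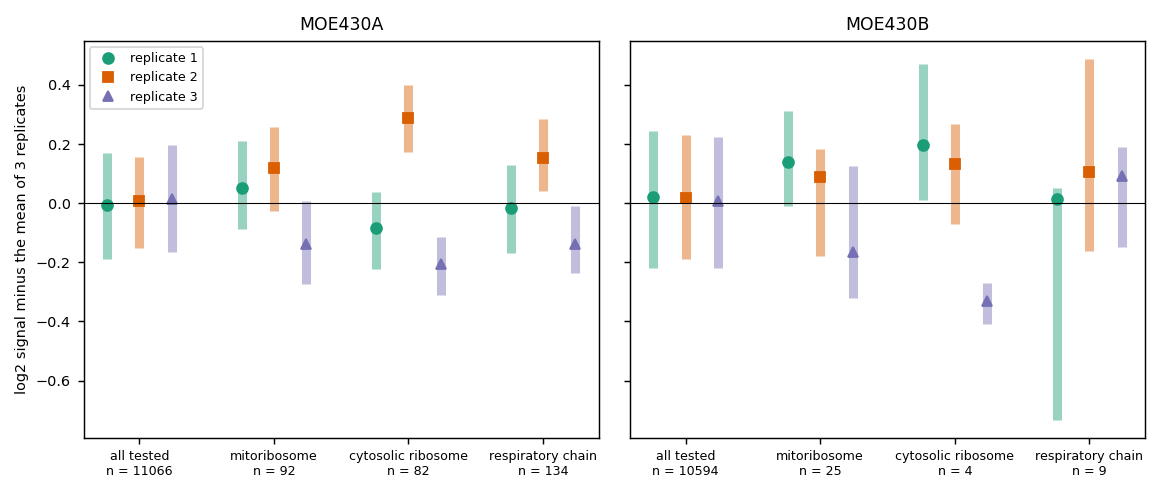
Deviation of each replicate from the mean of the 3 replicates, as log2(signal + 16), for all tested probe sets and 3 gene families on MOE430A (left) and MOE430B (right); symbols are medians, bars span the quartiles over probe sets, and n is the number of probe sets. The mitoribosome medians of replicate 3 are -0.14 and -0.16, while those of all tested probe sets lie at 0.02 and 0.01; on MOE430B the last 2 families hold 4 and 9 probe sets only.

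On MOE430A other families were also often lowest in replicate 3. It was lowest for 51 of 82 probe sets of cytosolic ribosomal proteins (62.2%), with a median deviation of -0.20, and for 76 of 134 of the respiratory chain and ATP synthase (56.7%), with -0.14. For cytosolic ribosomal proteins replicate 2 was the highest in 69 of 82. On MOE430B, with few probe sets, replicate 3 was lowest for 3 of 4 of the cytosolic ribosomal proteins and 3 of 9 of the respiratory chain and ATP synthase, with median deviations of -0.33 and 0.09. Within the mitochondrial ribosome, replicate 3 was lowest for 40 of 65 large-subunit and 14 of 27 small-subunit probe sets. By origin it was lowest for 24 of 37 large-subunit probe sets with bacterial counterparts and 16 of 28 without, and for 7 of 17 and 7 of 10 in the small subunit. The median deviation was -0.15 and -0.16 in the large subunit and -0.14 and -0.13 in the small.

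Single genes show the size. On MOE430A replicate 3 was under 50% of the geometric mean of the other replicates in 3 of 92 tested members, where it was in 1.42% of all. They were the Mrpl15, Mrpl28 and Mrpl52 probe sets given above, at -0.74, -0.68 and -0.68 from their 3-replicate mean. On MOE430B it was so in 2 of 25, where it was in 5.08% of all. These were a probe set of Mrpl15, at 1216, 1179.7 and 534.9, and one of Mrps5, at 2945, 1991 and 773.1. On MOE430A Mrpl40, Mrps18a, Mrpl44 and Mrpl3 were at -0.52, -0.51, -0.51 and -0.50. Mrpl44, which carries an RNase III-like fold, read 3107, 3214 and 1852, and Mrpl3 read 2336, 2349 and 1382. Mrpl22 read 2627, 3080.3 and 1788. In the opposite direction were Mrpl33, at 0.41, and single probe sets of Mrpl49, Mrps2 and Mrps11, at 0.41, 0.31 and 0.31. Of 18 genes with 2 or more tested MOE430A probe sets, 9 had the same lowest replicate in all of them, and 10 had replicate 3 below the mean in all. These shares were not counted over all genes, so they do not set the members apart. By promoter letters, the median deviation of replicate 3 on MOE430A was -0.14 in 23 genes with the ETS letters and -0.12 in 39 without. It was -0.14 both in 8 genes with the nuclear respiratory factor 1 letters and in 54 without, and -0.07 in 11 genes with the Yin Yang 1 letters and -0.14 in 51 without. No test was run on these medians.

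Some members could be read on both array types. Of the 100 probe sets on both, 4 were members, and each was compared within its own type only. Mrpl43 read 2849, 2151 and 1640.2 on MOE430A and 10373, 8056 and 9077 on MOE430B. It was highest in replicate 1 on both and lowest in replicate 3 on the first and replicate 2 on the second. Mrpl27, a counterpart of bacterial L27 at the catalytic centre, read 3370.1, 3942 and 3369 on MOE430A and 15734, 13397 and 13013 on MOE430B. One Mrpl52 probe set read 2145, 2533 and 1146, and 8282, 9069 and 6543. The other, whose x suffix marks oligonucleotides that can also bind other transcripts, read 2756, 3459 and 2580 on MOE430A, and 13681, 13491 and 9612 on MOE430B. Both Mrpl52 probe sets were lowest in replicate 3 on both types. Mrpl27 was lowest in replicate 3 on MOE430B, while on MOE430A its replicates 1 and 3 were nearly equal. Over all 100 shared probe sets, the lowest replicate was the same on both types for 44.

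**Figure D4:**
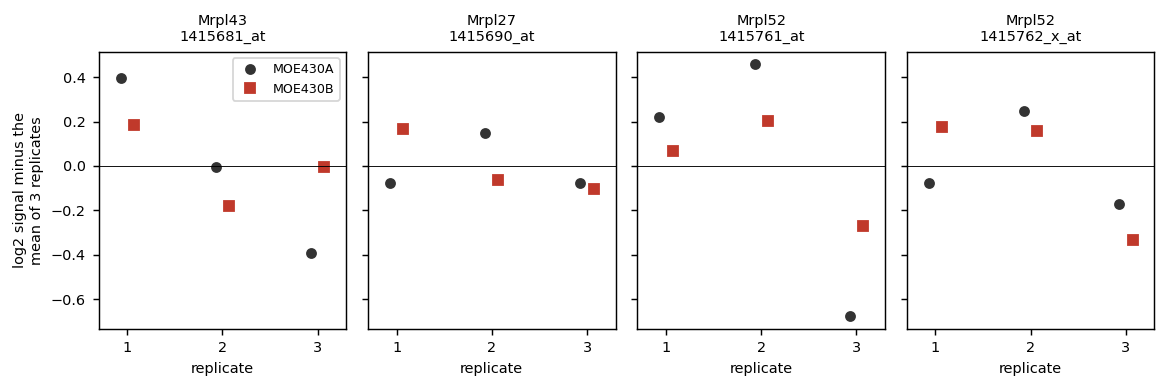
Deviation of each replicate from its 3-replicate mean, as log2(signal + 16), for the 4 member probe sets on both array types, with circles for MOE430A and squares for MOE430B. Replicate 3 lies below 0 in all 8 cases, furthest for the first Mrpl52 probe set on MOE430A at -0.68 and nearest to 0 for Mrpl43 on MOE430B at -0.01. The 8 cases are not independent, as each probe set is read on both types and Mrpl52 has more than 1. For all 100 shared probe sets, the sign of replicate 3 was the same on both types for 70.

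Another 13 genes were tested on both types through different probe sets. The deviation of replicate 3 had the same sign on both for 9 of them and was below 0 on both for 7. For the 100 probe sets of any gene that are on both types, the sign was the same for 70. Those are the same probe sets on each type, and genes read through different ones were not counted beyond the members. Mrpl15 deviated by -0.34 on MOE430A and -0.76 on MOE430B, and Mrpl35 by -0.16 and -0.32. Mrps15 differed, at -0.16 and 0.95, as did Mrpl48, at -0.46 and 0.45. The difference of replicate 1 had the same sign on both types for 6 of 13, and for 66 of the 100 shared probe sets.

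Other values also differed between the replicates, not all of them in replicate 3. On MOE430A replicate 3 was scanned on another day and processed on another fluidics station than replicates 1 and 2. On MOE430B all 3 arrays shared a day, and replicates 2 and 3 a station. There, with day and station shared, replicate 3 was below replicate 2 for 15 of 25 members (60.0%, against 51.3% of all tested), with a median difference of -0.18. Between MOE430A replicates 1 and 2, which shared both, replicate 2 was below replicate 1 for 40 of 92 (43.5%, against 49.4% of all tested). The Gapdh 3′ over 5′ signal ratio, a measure of RNA integrity and labelling, was 1.27, 1.16 and 0.846 in replicates 1, 2 and 3 on MOE430A and 1.32, 1.24 and 0.802 on MOE430B. The beta-actin ratio was 1.05, 1.17 and 1.09, and 1.02, 1.33 and 1.10. Fibroblast markers on MOE430A had a median deviation of 0.16 in replicate 3 over 19 probe sets. The part of these in the members' deviations was not tested.

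The other genes of mitochondrial translation were read from lists of their own, and limma called 0 probe sets in each. Of 5 mitochondrial ribosome proteins with unrelated symbols, 4 were measured and 3 were above the floor. Dap3, a GTP-binding protein of the small subunit, read 2561, 2859 and 2302, and Ptcd3, an RNA-binding one, 1069.8, 1238 and 1262.5. Chchd1 read 750.1, 2721 and 1431, with a difference of -1.38 between replicate 1 and the others on the log2(signal + 16) scale (limma adjusted p = 0.135). Gadd45gip1 was not above the floor, at 786.9, 687.4 and 694.7 on its brightest probe set.

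The genes that build and serve the ribosome were counted against the same floor, which 54.7% of all genes passed. Of assembly factors 10 of 19 were, with Malsu1, at 8148, 7770.5 and 6656, and Mpv17l2, at 9009, 6698 and 6691, both on MOE430B. Of translation factors 9 of 13 measured were, with Slirp, an RNA-stabilizing protein, at 2703, 3987 and 3163, and Tsfm, an elongation factor, at 3394, 2518 and 3674 on MOE430B. Of mitochondrial tRNA synthetases 10 of 16 were, with Cars2 at 3165, 4302 and 3694 and Lars2 at 3130.2, 3976 and 2503, both on MOE430B. Of 6 mitochondrial transcription genes 3 were, with the polymerase Polrmt at 5114, 2880.1 and 3249.5 and Tfb2m at 1558, 1499 and 1099. Replicate 3 was lowest for 2 of 10 tested assembly factor probe sets on MOE430A, 4 of 11 of the translation factors, 1 of 6 of the synthetases and 3 of 4 of transcription, where it was lowest for 33.6% of all. On MOE430B it was lowest for 3 of 6, 2 of 4, 2 of 9 and 1 of 1, where it was for 34.5%.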

How the data were processed

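The authors deposited linear MAS5 intensities, a column for each array. The submitters' processing notes name MAS5, whose version is not given in the sources used here. Without the top and bottom 2% the mean signal was 1499.8 to 1499.9 on every array, so the authors had scaled each to 1 target. Instrument records gave scan day and station only. The 64 control probe sets of each type entered the median, the tryptophan controls an alternative floor, and none a test. No result sets the array types against each other in level. Symbols came from GEO's platform annotation, and all 160 member probe sets matched RefSeq by identifier. On MOE430A 20380 probe sets had 1 symbol, 691 several and 1555 none, and on MOE430B 14661, 245 and 7605. Sequences are RefSeq's, build GRCm38.p6.

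Replicate 1 was compared with replicates 2 and 3 by limma 3.58.1 (R 4.3.3; lmFit, eBayes) on log2(signal + 16), on probe sets with a mean log2 signal above the mean log2 floor, with Benjamini-Hochberg adjustment over all of them at 0.05. The scale understates changes of dim genes. A gene's value is its brightest probe set, on MOE430A where it has one. The number of arrays limits the precision.

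Named members are those called, the 5 smallest p-values per direction (3 on MOE430B), the 5 widest and narrowest spreads above the floor (3), those at or under the floor, those with several probe sets, the stalk and Mrps18 genes, and up to 3 per subunit and origin by mean signal, which ranks no transcripts. Of other lists the 2 highest are named, picked across both array types, whose scales differ, so that choice is no ranking. The marker genes given with values, such as Pou5f1, and the other genes named for replicate 3 or a promoter were chosen after their values were seen. Members, lists and rules were chosen with earlier results of these data known, and the replicate 3 counts after the values were seen.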

Additional observations from a re-analysis of the deposited data

How the results depend on the processing

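No paired analysis was possible because the replicate numbers are shared only between array types, between which no test was run. With the floor at the 75th percentile, 40 MOE430A and 11 MOE430B member probe sets and 42 member genes were above it (20.7%, 17.7% and 30.4% of all). With a fixed floor of 200 they were 110, 28 and 76 (68.0%, 70.0% and 79.7% of all). Leaving out a replicate gave 87 to 90, 22 to 24 and 74 to 75. With the brightest tryptophan control as the floor, 85 MOE430A and 9 MOE430B probe sets were above it (41.5% and 16.2% of all). Updated symbols gave the same counts. The members' median SD was 0.17 to 0.25 on MOE430A and 0.16 to 0.30 on MOE430B with a replicate left out, lowest on MOE430B without replicate 3. These SDs rest on fewer values than those over 3 replicates, were not taken over all probe sets, and the cause was not tested. Over all 3 replicates it was 0.25 to 0.26 and 0.30 to 0.32 under other pseudocounts, scaling and filters. The median difference of replicate 1 ran from -0.05 to 0.14 on MOE430A and from 0.04 to 0.27 on MOE430B with replicate 3 or 2 left out, and was 0.11 and 0.12 after quantile normalization. Mrps15 on MOE430B changed from -0.61 to -1.36 without replicate 2 and to 0.14 without replicate 3, the replicate in which it was highest. Alternatives added after the data were seen put the share of members lowest in replicate 3 at 53.5% to 63.0% on MOE430A and 45.5% to 52.0% on MOE430B. Of 186 alternative values, 180 kept their direction and side of the threshold or lay within the range set for no change. That range was wide. For a median difference it was the members' median SD, 0.25 on MOE430A, so the change of sign to -0.05 there counted as none. A single difference counted as unchanged if it kept its sign and stayed uncalled, as Mrps16 did at -0.54 and -0.08. The 180 therefore do not measure how firm the values are.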
